A study of Homo sapiens with 6 samples.

Results

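The ZNF genes are the numbered members of the human zinc finger family, most of them encoding DNA-binding proteins built from repeated C2H2 fingers. They were chosen by symbol (ZNF, a number and at most 1 letter) and by a mean level of at least 5 TPM over all 6 libraries. TPM is the abundance of a transcript per length, scaled to the same total in each library. This left 195 of the 560 ZNF symbols among the 60589 genes of the table. Of the other 365, 42 were listed at 0 in every library. The level that chose the genes was averaged over both groups, so a high level in either group could carry a gene past the limit.

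The cells were SNU449, an established line from a human hepatocellular carcinoma. RNA was collected at day 3 from cells treated with an siRNA against MAD2L1 (siMAD2L1, n = 3) and from cells treated with a control siRNA (siControl, n = 3), all grown in DMEM with serum. MAD2L1 encodes the spindle checkpoint protein MAD2, which holds back anaphase until chromosomes are attached, and the comparison concerns its depletion. The treatment field names other MAD2L numbers for siMAD2L1 replicates 2 and 3, although all 3 titles name MAD2L1. The siRNA sequences are not given in the labels, and the labels do not say whether the libraries came from separate cultures, so p-values cover only the spread among the libraries sequenced. In bulk RNA, fewer cells of a kind and less RNA per cell cannot be told apart.

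A C2H2 finger folds around a zinc ion held by 2 cysteines and 2 histidines and reads a few bases of DNA, so an array of fingers reads a longer site. Many ZNF proteins carry a KRAB box, which recruits the corepressor TRIM28 (KAP1) and through it the histone H3 lysine 9 methyltransferase SETDB1, and a large share of these proteins silence transposable elements. Others carry a SCAN domain, used for pairing with other SCAN proteins, or neither domain. The KRAB genes multiplied by tandem duplication and lie largely in clusters on chromosome 19.

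The finger code is shown here for 4 of the genes described below as lower in siMAD2L1, because it is the feature that gives the family its name and it makes plain how far family members differ. Each line is 1 finger and the linker after it, 84 bases read 5′ to 3′ on the coding strand from GENCODE 29 transcripts (GRCh38), the first finger in each gene with the spacing of 2, 12 and 3 residues between cysteines and histidines and a linker opening with threonine and glycine. Capitals mark the 2 cysteine codons and the 2 histidine codons.
ZNF726: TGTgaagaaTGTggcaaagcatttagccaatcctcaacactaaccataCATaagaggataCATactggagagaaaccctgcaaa
ZNF747: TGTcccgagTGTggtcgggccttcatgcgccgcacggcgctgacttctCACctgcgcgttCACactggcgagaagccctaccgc
ZNF629: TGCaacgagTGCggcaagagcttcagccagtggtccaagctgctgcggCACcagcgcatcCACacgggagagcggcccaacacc
ZNF362: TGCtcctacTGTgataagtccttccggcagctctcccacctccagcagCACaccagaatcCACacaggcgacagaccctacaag
Over these 84 bases the genes were identical at 52.4% (ZNF726 and ZNF362) to 61.9% (ZNF629 and ZNF362). Over whole transcripts, exact sharing with any other gene was counted instead, a measure that cannot be set beside these percentages. Cut into runs of 50 bases, 87 of the 195 genes shared no run with the annotated transcripts of another gene, 30 shared more than 10% and 4 shared more than 50%, so the counting of reads could divide those 4 between genes. These were ZNF320 (99.5%, mostly with ZNF468), ZNF747 (89.6%, with AC002310.5), ZNF410 (83.5%, mostly with AC005520.1) and ZNF286A (68.9%, partly with ZNF286B).

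Of the 195 genes, 191 are annotated as protein-coding and 4 as pseudogenes. A KRAB box was found in 104 of the coding genes, with a SCAN domain beside it in 7, while 5 had a SCAN domain without KRAB and 82 had neither. The coding genes had a median of 9 fingers. ZNF142 had the most, with 35, and ZNF330, ZNF503, ZNF738, ZNF839 and ZNF862 had none by the pattern used. Chromosome 19 carried 86 of the 195 genes and 65 of the 104 with a KRAB box. The mean level of the 195 genes had a median of 9.35 TPM, beside 10.5 TPM for all tested genes and 21.4 TPM for tested genes with a mean of at least 5 TPM. Of the 195, 107 lay under 10 TPM and 9 reached 50 TPM, while the genes with a KRAB box had a median of 7.41 TPM and the coding genes without one 11.9 TPM.

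MAD2L1 measured 4.47, 0.795 and 2.40 TPM in siMAD2L1 replicates 1, 2 and 3, against 14.5, 13.7 and 13.9 TPM in siControl replicates 1, 2 and 3. Every siMAD2L1 library lay below every siControl library, and replicate 1 kept the most MAD2L1. Without siControl replicate 1, 2 or 3 its adjusted p was 0.0597, 0.0547 or 0.0572. The fitted log2 change was -2.22 (SE 0.357, limma adjusted p = 0.0105). All fold changes here are differences of mean log2(TPM + 1) from limma over the 6 libraries, which understate changes of genes with low TPM. The p-values are adjusted by the Benjamini-Hochberg method over the 14790 genes with a mean of at least 1 TPM. The siMAD2L1 replicate 1 library stood apart on the second principal component (23.4% of the variance), with a score of 40.0 against -24.7 and -11.9 for replicates 2 and 3. Mitochondrially encoded genes took 9.84% ± 0.896 of the TPM in siMAD2L1 and 15.3% ± 0.06 in siControl (SD, n = 3 each). Of the 8 hepatocyte markers checked 2 reached a mean of 1 TPM, APOB and TTR were at 0 in every library and ALB was at most 0.451 TPM, while all 5 mesenchymal markers were present. Of the leukocyte markers CD3E was at 0 and PTPRC at most 0.06 TPM, and none of the 4 endothelial markers reached 1 TPM. Summed levels of the marker lists moved with the groups: hepatocyte markers held 5.43 to 7.70 TPM in siMAD2L1 and 10.1 to 13.9 TPM in siControl, and leukocyte markers, nearly all of it CD68, 125.6 to 145.2 TPM in siMAD2L1 and 63.7 to 71.4 TPM in siControl. Biliary markers held 155.2 to 193.4 TPM in siMAD2L1 and 217.8 to 240.8 TPM in siControl, mesenchymal markers 10720 to 11370 TPM in siMAD2L1 and 9348 to 10250 TPM in siControl, and erythroid markers 8.68 to 13.9 TPM in siMAD2L1 and 2.57 to 3.57 TPM in siControl. Endothelial markers held 0.08 to 0.154 TPM in siMAD2L1 and 0.155 to 1.08 TPM in siControl. Their part in the ZNF values was not tested.

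Few ZNF genes passed the test. At an adjusted p under 0.05, 6 of the 195 were lower in siMAD2L1 (3.08%) and 0 were higher, against 9.78% of all tested genes (6.23% lower and 3.55% higher). At an unadjusted p under 0.05 there were 24 (12.3%), against 26.3% of all tested genes. Of the 8100 other genes within the same range of mean TPM, 11.6% were called. The ZNF genes were measured less precisely, with a median SE of 0.175 against 0.145 for those genes. A gene that was not called is therefore not shown to be unchanged. The genes that fell were ZNF726, ZNF747, ZNF839, ZNF629, ZNF362 and ZNF444. ZNF726, ZNF747 and ZNF629 averaged 4.18, 3.94 and 4.72 TPM in siMAD2L1, so siControl (8.22, 7.27 and 7.43 TPM) carried them past 5 TPM. Their falls are not free of the choice by level. Genes also passed through siMAD2L1, such as ZNF627 and ZNF696 (5.41 and 5.56 TPM, against 4.66 and 4.60 TPM in siControl), which were not called. All 6 calls rest on the siControl group being complete, since 0 of the 195 were called without siControl replicate 1, 2 or 3, with log2 fold changes of the 6 genes between -0.84 and -0.41 in those fits. Without siMAD2L1 replicate 1 all 6 were called among 19 genes, and without replicate 2 or 3 the count was 1.

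ZNF726, a KRAB gene with 16 fingers, had the largest change of the 6. Its position is chromosome 19, 23914876 to 23945159, plus strand (GRCh38). The gene measured 4.36, 3.68 and 4.50 TPM in siMAD2L1 replicates 1, 2 and 3, against 8.32, 8.12 and 8.22 TPM in siControl replicates 1, 2 and 3. The groups did not overlap, and the siControl libraries lay closer together than the siMAD2L1 libraries. The mean was 4.18 ± 0.437 TPM in siMAD2L1 and 8.22 ± 0.0985 TPM in siControl (SD, n = 3 each), a log2 fold change of -0.83 (SE 0.143, limma adjusted p = 0.0131). It shared 16.6% of its 50-base runs with other transcripts.

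ZNF747, a short KRAB gene with 4 fingers, was the other KRAB gene to fall. Its position is chromosome 16, 30530367 to 30535347, minus strand. The gene measured 3.53, 3.98 and 4.30 TPM in siMAD2L1, against 7.30, 8.40 and 6.11 TPM in siControl. The highest siMAD2L1 library lay below the lowest siControl library. The fitted log2 change was -0.74 (SE 0.167, limma adjusted p = 0.0327). The value is uncertain because 89.6% of its 50-base runs also occur in AC002310.5, and exons on the opposite strand cover 15.1% of it while the strand setting of the counting is not given in the sources used here.

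ZNF444, the SCAN gene of the 6, had the highest level among them, and its protein is known as a regulator of a scavenger receptor gene in endothelial cells. Its position is chromosome 19, 56132599 to 56160893, plus strand. It has 4 fingers and shared no 50-base run. It measured 27.9, 24.7 and 24.8 TPM in siMAD2L1, against 32.4, 36.7 and 39.0 TPM in siControl. The groups were apart, with siMAD2L1 replicate 1 and siControl replicate 1 nearest to each other. The fitted log2 change was -0.46 (SE 0.108, limma adjusted p = 0.0359).

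The other 3 carry neither KRAB nor SCAN. ZNF362, a relative of ZNF384 with 6 fingers on the plus strand of chromosome 1 (33256545 to 33300719), measured 7.04, 7.44 and 8.28 TPM in siMAD2L1, against 10.5, 12.8 and 11.2 TPM in siControl. Its fitted log2 change was -0.54 (SE 0.135, limma adjusted p = 0.0449). ZNF629, with 19 fingers on the minus strand of chromosome 16 (30778449 to 30787202), measured 4.60, 4.96 and 4.60 TPM in siMAD2L1, against 7.08, 8.03 and 7.19 TPM in siControl. In both genes the lowest siControl library stood above the highest siMAD2L1 library. The log2 fold change of ZNF629 was -0.56 (SE 0.139, limma adjusted p = 0.0446). ZNF839, on the plus strand of chromosome 14 (102317377 to 102342702) and with no finger of the pattern used, measured 5.46, 6.15 and 6.44 TPM in siMAD2L1, against 10.7, 8.73 and 8.80 TPM in siControl. It also did not overlap between the groups, at a log2 fold change of -0.57 (SE 0.145, limma adjusted p = 0.0485), and exons on the opposite strand cover 24.7% of it.

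**Figure D1:**
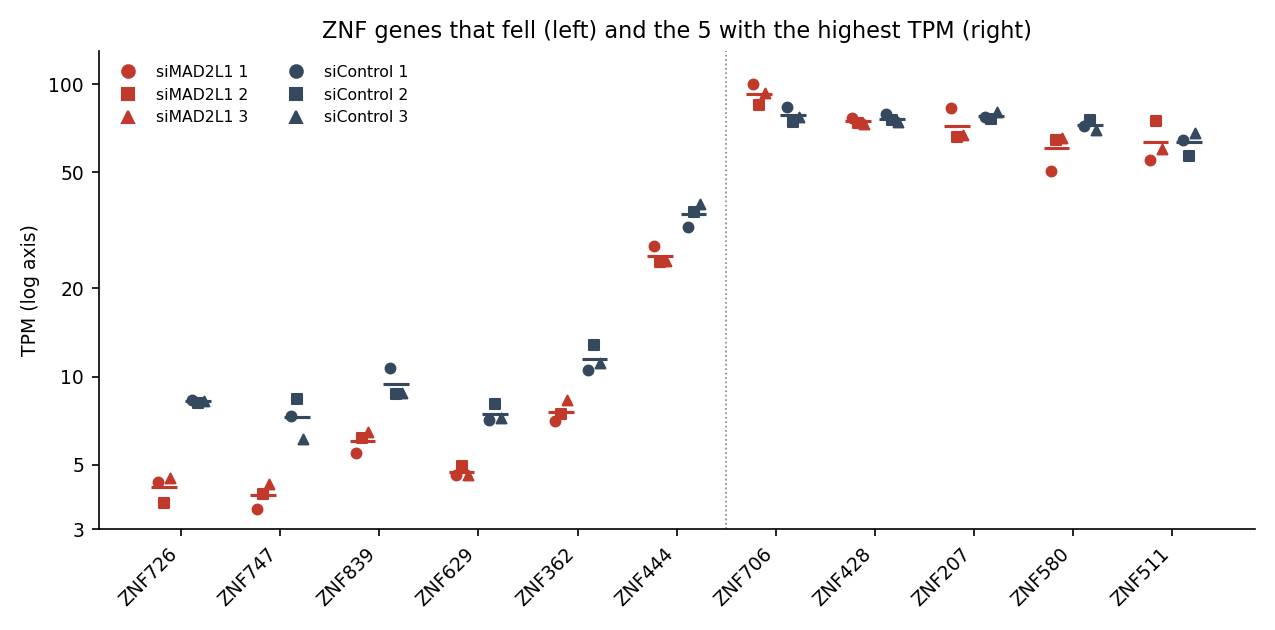
TPM on a log axis in each library for the 6 ZNF genes that fell and the 5 with the highest mean TPM; red points are siMAD2L1 and dark points siControl, marker shapes are replicate numbers and bars are group means. The 6 genes on the left lie lower in every siMAD2L1 library than in any siControl library, while among the 5 on the right the values of ZNF428, ZNF207 and ZNF511 overlap between the groups.

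The ZNF genes with the highest levels showed small differences. ZNF706, which encodes a very short protein with 1 finger, measured 100.1, 84.8 and 93.1 TPM in siMAD2L1, against 83.6, 74.3 and 77.1 TPM in siControl. Its siMAD2L1 libraries were all above the siControl libraries, but the log2 fold change of 0.24 (SE 0.0913) did not pass (limma adjusted p = 0.144). ZNF207 (BuGZ) binds the checkpoint protein BUB3 and helps it to load on kinetochores, so it works in the same checkpoint as MAD2L1. It measured 82.7, 65.7 and 67.2 TPM in siMAD2L1, against 77.2, 76.1 and 80.4 TPM in siControl. Replicate 1 of siMAD2L1 was the highest of the 6 libraries and replicates 2 and 3 the lowest. The log2 fold change was -0.12 (95% interval -0.36 to 0.12, limma adjusted p = 0.501), and without siMAD2L1 replicate 1 it was -0.22 (adjusted p = 0.0635).

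ZNF580 measured 50.5, 64.6 and 65.6 TPM in siMAD2L1, against 71.7, 75.5 and 69.9 TPM in siControl. The groups did not overlap, and siMAD2L1 replicate 1 was the lowest library. Its log2 fold change was -0.27 (limma adjusted p = 0.181). ZNF428 stayed between 72.9 and 76.7 TPM in siMAD2L1 and between 74.0 and 79.2 TPM in siControl (log2 fold change -0.03, 95% interval -0.20 to 0.14). ZNF511 ranged from 54.8 to 74.8 TPM in siMAD2L1 and from 56.9 to 68.0 TPM in siControl (log2 fold change -0.01, 95% interval -0.31 to 0.29). Both were below the threshold of the test with overlapping groups.

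Over all 195 genes the fold changes had a median of -0.05 with quartiles of -0.24 and 0.12. The 9907 tested genes with a mean of at least 5 TPM had a median of -0.05 with quartiles of -0.26 and 0.15, and all tested genes a median of -0.08 with quartiles of -0.32 and 0.14. The median of the ZNF genes was 0.03 under quantile normalization and 0.02 with a transcript-length trend removed, so its sign is not fixed by these data. A difference of more than 1.5-fold was fitted for 3 of the 195 (1.54%), against 9.55% of tested genes with a mean of at least 5 TPM and 12.8% of all tested genes, and 0 exceeded 2-fold. The 3 were ZNF778, ZNF726 and ZNF747. They averaged 3.82, 4.18 and 3.94 TPM in siMAD2L1, so siControl (8.76, 8.22 and 7.27 TPM) carried them past 5 TPM. These differences are not free of the choice by level. The 95% interval lay within 2-fold in either direction for 94.9% of the ZNF genes, beside 89.6% of tested genes with a mean of at least 5 TPM. The 195 together held 2820, 2579 and 2549 TPM in siMAD2L1 replicates 1, 2 and 3, against 2740, 2782 and 2710 TPM in siControl (two-sided exact permutation p = 0.4; the smallest possible is 0.1).

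**Figure D2:**
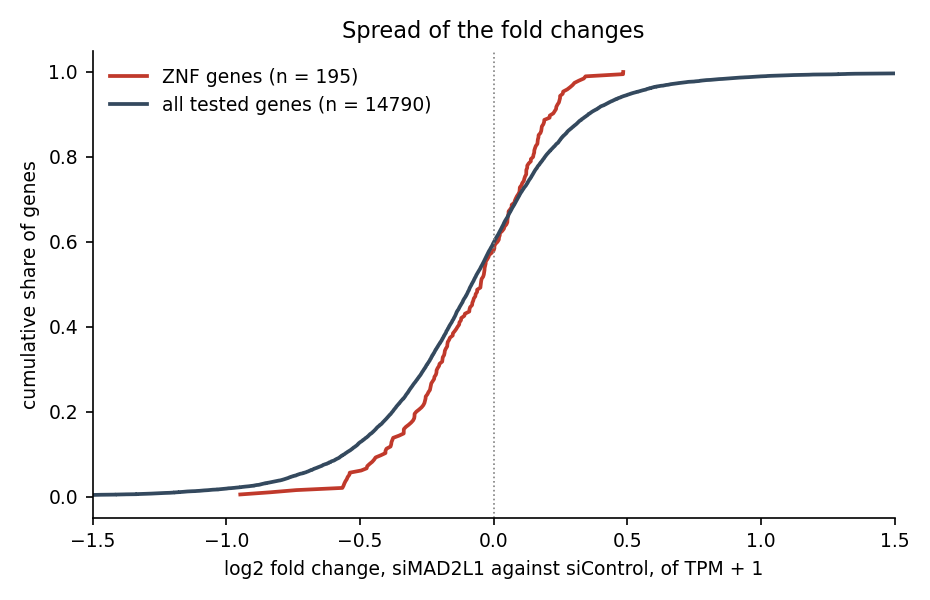
Cumulative share of genes (vertical axis) by log2 fold change of TPM + 1, siMAD2L1 against siControl (horizontal axis), for the 195 ZNF genes in red and all 14790 tested genes in dark. The red curve is the steeper, with quartiles of -0.24 and 0.12 against -0.32 and 0.14.

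Without overlap between the groups, 29 ZNF genes were lower (14.9%) and 9 were higher (4.62%) in siMAD2L1, against 21.5% and 11.3% of all tested genes. Both shares are under the background, so the counts are no result about the family. The 9 were ZNF706 and, outside the rule for named genes and chosen after their values were seen, ZNF655, ZNF282, ZNF316, ZNF517, ZNF74, ZNF574, ZNF384 and ZNF275. Of these, ZNF655, a KRAB gene, had 43.7, 44.9 and 48.3 TPM in siMAD2L1, against 41.3, 36.9 and 38.2 TPM in siControl (log2 fold change 0.23, limma adjusted p = 0.156). ZNF384, a fusion partner in acute leukaemia, had 25.9, 19.5 and 19.7 TPM in siMAD2L1, against 18.6, 18.8 and 18.9 TPM in siControl. Most of its difference lay in siMAD2L1 replicate 1, and its log2 fold change was 0.19 (limma adjusted p = 0.405), beside -0.54 for its relative ZNF362.

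The lowest and highest fold changes of the family belonged to genes that varied within a group, named here after their values were seen. ZNF778, a KRAB gene, had 2.60, 2.10 and 6.75 TPM in siMAD2L1, against 11.01, 2.86 and 12.4 TPM in siControl. The groups overlapped, and its log2 fold change of -0.95 had an SE of 0.521 (limma adjusted p = 0.294). ZNF778 averaged 3.82 TPM in siMAD2L1, so siControl carried it past 5 TPM. ZNF281, a repressor known from pluripotent cells, had 29.2, 14.6 and 17.3 TPM in siMAD2L1, against 13.8, 14.7 and 12.6 TPM in siControl. Its log2 fold change of 0.48 (limma adjusted p = 0.227) came mainly from siMAD2L1 replicate 1. ZNF382, a KRAB gene, had 8.67, 4.51 and 5.04 TPM in siMAD2L1, against 3.55, 2.27 and 6.91 TPM in siControl, and its log2 fold change was also 0.48 (limma adjusted p = 0.425).

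By architecture, 2 of the 104 genes with a KRAB box fell (1.92%; median log2 fold change -0.09) and 4 of the 87 coding genes without one (4.60%; median -0.02). The 4 were 1 of the 5 SCAN genes and 3 of the 82 with neither domain. On chromosome 19, 2 of 86 fell (2.33%; median -0.06), against 4 of 109 elsewhere (3.67%; median -0.05). By number of fingers, 3 of 39 genes with at most 4 fingers fell (7.69%) and 1 of 62 with 5 to 9 (1.61%). With 10 to 14 fingers 0 of 48 fell, and with 15 or more 2 of 42 (4.76%). Of all tested genes 6.23% were called lower, so the counts by class are no result about the classes. These classes were described by counts and were not tested against each other.

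The 3 libraries of siMAD2L1 differed in direction, for the ZNF genes as for all tested genes. The median difference of a ZNF gene from its siControl mean was 0.08 (log2) in replicate 1, -0.14 in replicate 2 and -0.14 in replicate 3, beside 0.02, -0.15 and -0.12 over all tested genes. Among 35 tested ZBTB genes, a related zinc finger family, the medians were 0.34, -0.04 and 0.04. The ZBTB genes were taken without the limit of 5 TPM. They had lower levels (median 4.42 against 9.35 TPM) and longer transcripts (median 4627 against 3313 bases) than the ZNF genes. Replicate 1 held the highest of the 6 values for 76 of the 195 genes (39.0%), against 30.3% of all tested genes and 68.6% of the ZBTB genes. For 57 genes (29.2%, against 18.9% of all tested genes) replicate 1 lay above the siControl mean while replicates 2 and 3 lay below it. The split was wider among genes with a KRAB box, with medians of 0.14, -0.19 and -0.17, than among coding genes without one, with medians of 0.02, -0.05 and -0.09. The spread within siMAD2L1 (median SD of log2 values) was 0.286 with a KRAB box and 0.177 without, and within siControl 0.161 and 0.117. The KRAB genes also had lower TPM and longer transcripts (median 3574 against 3008 bases), and the part of these in the spread was not tested.

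**Figure D3:**
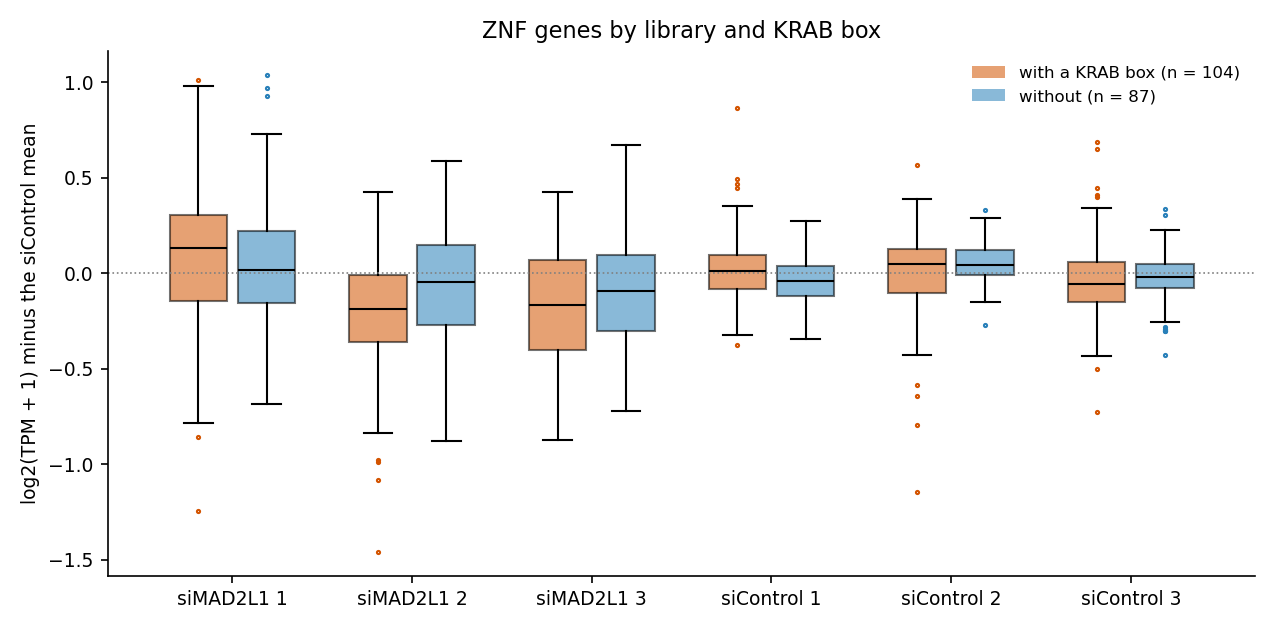
Difference of each ZNF gene's log2(TPM + 1) from its siControl mean (vertical axis) in the 3 siMAD2L1 and 3 siControl libraries (horizontal axis), for 104 genes with a KRAB box and 87 coding genes without; boxes are quartiles with the median, whiskers reach 1.5 box heights and dots lie beyond. With a KRAB box the median is 0.14 in siMAD2L1 replicate 1 and -0.19 and -0.17 in replicates 2 and 3.

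The difference from siControl also varied with transcript length, most in siMAD2L1 replicate 1. Among ZNF genes the correlation in siMAD2L1 replicate 3 was weaker than in siControl replicates 1 and 2, so its sign is not read. Across the 195 genes the Spearman correlation between the difference from siControl and transcript length was 0.27, -0.12 and 0.04 in siMAD2L1 replicates 1, 2 and 3, and over 14363 tested genes 0.23, -0.08 and 0.05. In siControl replicates 1, 2 and 3 it was -0.075, 0.076 and -0.004 across the 195 genes, and -0.044, 0.15 and -0.145 over the tested genes. The correlation with length thus also varied among the siControl libraries. Genes share libraries and are not independent, so these are descriptions. In the 65 ZNF genes with the longest transcripts, at least 4331 bases, the medians were 0.24, -0.21 and -0.08, and in the 65 with the shortest, up to 2577 bases, -0.02, -0.08 and -0.14. With a length trend removed from each library, 2 of the 195, ZNF726 and ZNF747, were called lower and 0 higher. The 4 genes that lost their calls kept log2 fold changes of -0.52 (ZNF629), -0.47 (ZNF839), -0.45 (ZNF362) and -0.36 (ZNF444), with limma adjusted p of 0.065 to 0.0938.

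Without siMAD2L1 replicate 1, 19 of the 195 were lower (9.74%, against 11.5% of all tested genes lower in that fit) and 0 were higher. The 13 added genes, named after their values were seen, include ZNF638, whose protein (NP220) silences unintegrated retroviral DNA. It had 18.9, 7.55 and 8.54 TPM in siMAD2L1 replicates 1, 2 and 3, against 16.1, 13.7 and 14.4 TPM in siControl. Replicate 1 was the highest of the 6 libraries and the other 2 the lowest. Its log2 fold change was -0.80 without replicate 1 (limma adjusted p = 0.00962) and -0.42 with all libraries (adjusted p = 0.412). The KRAB genes ZNF429 (-0.70) and ZNF776 (-0.68) followed in that fit. Over all libraries they averaged 4.64 and 4.71 TPM in siMAD2L1, so siControl (7.09 and 5.92 TPM) carried them past 5 TPM. The count of 19 is thus not free of the choice by level. Another fit kept siMAD2L1 replicate 1 as the sole library of its group, assumed to vary like the siControl libraries. There the log2 fold change was -0.78 for ZNF726 and -0.51 for ZNF580. ZNF281, ZNF562 and ZNF146, named after their values were seen, had 1.04, 1.01 and 0.93. ZNF726 was thus lower with replicate 1 alone and without it (-0.86), but both fits rest on the same siControl libraries.

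Some ZNF genes with well-known roles, chosen after their values were seen, illustrate the rest. ZNF91, a KRAB repressor of SVA retrotransposons, had 8.90, 7.98 and 7.02 TPM in siMAD2L1, against 8.58, 8.70 and 8.22 TPM in siControl (log2 fold change -0.09, limma adjusted p = 0.728). ZNF274, a KRAB and SCAN protein that directs heterochromatin to ZNF gene clusters themselves, had 32.2, 22.2 and 20.2 TPM in siMAD2L1, against 24.5, 26.9 and 23.7 TPM in siControl (-0.04, adjusted p = 0.918). Its siMAD2L1 replicate 1 was the highest library and replicates 2 and 3 the lowest. ZNF143, an activator bound at many promoters, had 10.6, 7.63 and 9.97 TPM in siMAD2L1, against 6.03, 7.98 and 10.3 TPM in siControl (0.21, adjusted p = 0.564). ZNF217, an oncogene amplified in breast cancer, had 17.01, 8.57 and 11.6 TPM in siMAD2L1, against 13.8, 16.96 and 14.6 TPM in siControl (-0.31, adjusted p = 0.426). ZNF598, a ubiquitin ligase that senses collided ribosomes, had 47.6, 54.6 and 48.9 TPM in siMAD2L1, against 48.2, 59.6 and 51.8 TPM in siControl (-0.07, adjusted p = 0.703). In all 5 the groups overlapped.

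The partners of KRAB proteins were read from a list of 29 corepressor and heterochromatin genes, of which 5 fell and 0 rose in siMAD2L1 (17.2%, against 9.78% of all tested genes called and 6.23% lower). The 29 genes had a median of 26.1 TPM, and of tested genes with a mean of at least 5 TPM 12.8% were called and 8.07% were lower. The median log2 fold change of the 29 was -0.19, beside -0.08 for all tested genes. The difference in shares was not tested. CHD4, the remodelling ATPase of the NuRD complex, had 45.6, 37.5 and 37.3 TPM in siMAD2L1, against 65.9, 77.6 and 81.9 TPM in siControl. Its groups were far apart, at a log2 fold change of -0.89 (SE 0.119, limma adjusted p = 0.00572). UHRF1, which guides DNA methylation at replication, had 13.1, 11.1 and 15.8 TPM in siMAD2L1, against 23.4, 23.3 and 28.6 TPM in siControl (-0.87, adjusted p = 0.014). PPHLN1, the periphilin subunit of the HUSH silencing complex, had 14.5, 16.2 and 11.9 TPM in siMAD2L1, against 25.03, 23.98 and 23.2 TPM in siControl (-0.73, adjusted p = 0.0152). The H3 lysine 9 methyltransferase EHMT2 also fell (-0.57, adjusted p = 0.0155). UHRF1, PPHLN1 and EHMT2 lost their calls without siControl replicate 1, 2 or 3 (adjusted p of 0.0526 to 0.0815).

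The central KRAB partners did not pass. TRIM28, the corepressor that KRAB boxes bind, had 294.5, 359.1 and 363.7 TPM in siMAD2L1, against 386.5, 358.6 and 440.9 TPM in siControl (log2 fold change -0.22, 95% interval -0.48 to 0.03, limma adjusted p = 0.245). SETDB1 had 18.6, 17.6 and 13.1 TPM in siMAD2L1, against 24.7, 15.7 and 16.1 TPM in siControl (-0.17, adjusted p = 0.636). CBX5, the heterochromatin protein HP1 alpha, had 18.96, 14.2 and 12.8 TPM in siMAD2L1, against 20.4, 18.9 and 16.9 TPM in siControl (-0.29, adjusted p = 0.297). All 3 overlapped between the groups, and without siMAD2L1 replicate 1 CBX5 was called lower (-0.44, adjusted p = 0.0456). ZNF410, which is outside the rule for named genes, is known as an activator whose main target is CHD4. It had 29.3, 29.2 and 26.5 TPM in siMAD2L1, against 30.2, 31.5 and 31.5 TPM in siControl. Its siMAD2L1 values were all lower, but the log2 fold change was -0.13 (limma adjusted p = 0.419), and 83.5% of its 50-base runs are shared.

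Pairs of ZNF genes that share sequence were read together. ZNF585A and ZNF585B are neighbours on chromosome 19 with 21 fingers each, and 12.9% of the 50-base runs of ZNF585A occur in ZNF585B and 17.95% of those of ZNF585B in ZNF585A. ZNF585A ranged from 6.93 to 12.2 TPM in siMAD2L1 and from 7.24 to 11.4 TPM in siControl, and did not pass (limma adjusted p = 0.703). ZNF585B ranged from 6.14 to 10.2 TPM in siMAD2L1 and from 7.67 to 10.7 TPM in siControl, and did not pass either (limma adjusted p = 0.572). ZNF320 had 5.38, 7.81 and 5.67 TPM in siMAD2L1, against 9.77, 9.65 and 7.74 TPM in siControl, at a log2 fold change of -0.47 (adjusted p = 0.135). ZNF552 had 5.19, 2.73 and 4.45 TPM in siMAD2L1, against 7.13, 5.51 and 6.64 TPM in siControl, at -0.56 (adjusted p = 0.151). ZNF814, ZNF286A, ZNF587 and ZNF581 had log2 fold changes between -0.34 and 0.11 and did not pass either.

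The choice of 5 TPM placed ZNF791 (5.03 TPM), ZNF627 (5.04 TPM) and ZNF696 (5.08 TPM) just inside by their mean over all libraries and ZNF786 (4.995 TPM), ZNF701 (4.995 TPM) and ZNF783 (4.95 TPM) just outside. Their log2 fold changes were -0.05, 0.18 and 0.22 inside and -0.06, 0.06 and -0.09 outside.

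Promoters were not used by the rule. RefSeq promoter windows (GRCh38.p14, from 250 bases before to 50 after the start) matched 163 of the 195 genes, 87 of them with a KRAB box. The windows of 2 genes that fell are printed because they show the motifs counted below, in capitals, for a KRAB gene and a SCAN gene. The first is chr19:23914636-23914935 on the plus strand and the second chr19:56141037-56141336 on the plus strand, both read 5′ to 3′. The RefSeq start of ZNF444 lies inside the span that GENCODE gives the gene.
ZNF726: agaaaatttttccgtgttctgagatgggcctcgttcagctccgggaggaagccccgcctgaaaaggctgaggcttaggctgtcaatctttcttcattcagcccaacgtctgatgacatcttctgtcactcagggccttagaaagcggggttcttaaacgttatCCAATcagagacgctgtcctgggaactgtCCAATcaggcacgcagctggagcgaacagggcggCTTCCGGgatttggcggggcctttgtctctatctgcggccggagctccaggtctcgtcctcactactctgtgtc
ZNF444: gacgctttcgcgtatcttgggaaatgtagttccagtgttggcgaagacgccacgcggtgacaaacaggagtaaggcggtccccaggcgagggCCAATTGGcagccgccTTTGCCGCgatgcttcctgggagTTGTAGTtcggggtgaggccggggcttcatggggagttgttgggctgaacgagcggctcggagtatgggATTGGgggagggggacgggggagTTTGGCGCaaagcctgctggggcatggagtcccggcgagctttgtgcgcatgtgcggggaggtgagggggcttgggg
ZNF726 holds the CCAAT box in 2 places and the ETS motif CCGGAAG on the opposite strand. ZNF444 holds CCAAT in 3 places, 2 of which overlap on opposite strands, the E2F motif TTTNNCGC in 2 and ACTACAA, a part of the site that ZNF143 reads, in 1.

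All motifs were searched on both strands, and matches may overlap. The ETS motif stood in 46.6% of the 163 ZNF windows, against 20.8% of 7371 windows of other protein-coding genes with a mean of at least 5 TPM and 10.7% of all 27305 windows. With a KRAB box the share was 54.0% and without one 38.2%. The CCAAT box, the site of NF-Y, stood in 57.5% of windows with a KRAB box and 27.6% of those without, against 36.6% of the other expressed coding genes and 35.7% of all windows. The E2F motif was in 10.3% with a KRAB box and 19.7% without, against 11.1% of the other expressed coding genes. The cAMP response element TGACGTCA (5.52% of ZNF windows) and ACTACAA (6.13%) were rarer, against 3.53% and 4.18% of the other expressed coding genes. ZNF windows had a median GC content of 63.0%, against 66.0% in the other expressed coding genes and 58.3% in all windows. Many KRAB genes arose by duplication and share sequence, so their windows are not independent. The shares were not tested against each other, and a match is a description of letters, not a bound site.

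**Figure D4:**
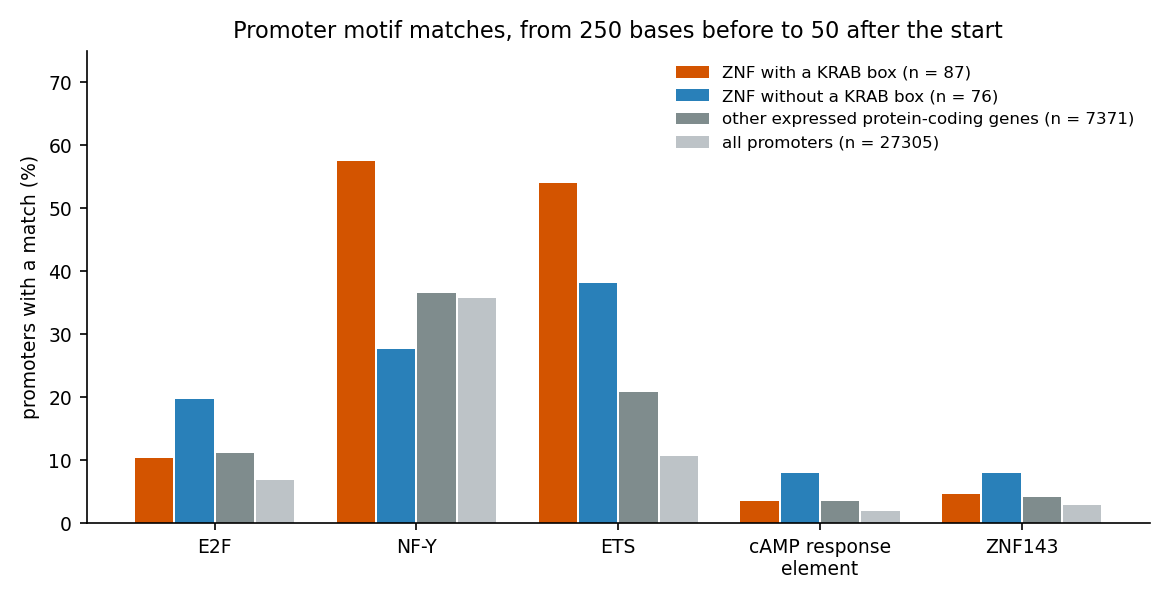
Share of promoter windows (%, vertical axis) with a match to 5 motifs (horizontal axis; NF-Y stands for the CCAAT box) in ZNF genes with a KRAB box, ZNF genes without one, other protein-coding genes with a mean of at least 5 TPM, and all windows. The ETS bars reach 54.0% and 38.2% in the ZNF sets and 20.8% in the other expressed coding genes, and the NF-Y bars 57.5% and 27.6%, against 36.6%.

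Of the 6 genes that fell, 3 held a CCAAT box, 2 an ETS motif (ZNF726 and ZNF362), and ZNF444 alone held an E2F motif and ACTACAA. ZNF747 and ZNF629 held none of the 5 in this window.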

How the data were processed

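The deposited table holds TPM for 60589 genes, 1 column per library, and 104 of the 195 ZNF rows carry an assembled transcript identifier beside the Ensembl one. The submitters' processing notes name fastp, HISAT2, DESeq2 1.16.1 and hg38. Trizol RNA went into an NEBNext Ultra library kit, per the labels' protocols. Not given in the sources used here are the read counter, annotation, strand setting and step to TPM. TPM keeps no depth, so depth is unknown and counting intervals could not be computed.

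Libraries were grouped by title. limma 3.58.1 (R 4.3.3) with an intensity trend was fitted to log2(TPM + 1) for the 14790 genes that averaged 1 TPM or more, without covariates. Calls used a Benjamini-Hochberg adjusted p under 0.05 over all of them. Adjusted p-values in the text are from limma. The fit was tested on simulated data, where it called 7.6% of log2 changes of 0.5 and 46.8% of log2 changes of 1. The simulation shuffled the spreads among all tested genes and changed 200 genes per run. These shares are therefore not the rate at which real changes of ZNF genes would be called. Python 3.11.15 was used for the rest.

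The ZNF genes and all gene lists were chosen with earlier results of these data known. Named genes are MAD2L1, up to 12 called rises and falls, the 5 highest, those beside the 5 TPM limit, ZNF genes sharing sequence with another ZNF gene, and corepressors called or fixed; others are said to be outside the rule. Some listed genes are not reported here. Types, positions and 50-base runs come from GENCODE 29. KRAB boxes (at least 14 identical residues of 41) and SCAN domains (20 of 45) were scored against the family's majority sequence, and fingers counted by pattern, in translated GENCODE transcripts; a protein table had been planned as the source. Same-numbered libraries of the 2 groups did not deviate together.

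The alternatives were other pseudocounts, filters, scalings and variance settings, a replicate block, removal of a transcript-length trend, leaving out each library, siMAD2L1 replicate 1 alone, and other limits on the family.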

Additional observations from a re-analysis of the deposited data

How the results depend on the processing

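Of the 195 ZNF genes, 0 were called higher under every alternative except siMAD2L1 replicate 1 alone, which called 3 higher and 2 lower with a median log2 fold change of 0.084. The 6 called lower became 1 with no filter, 3 with upper-quartile scaling, 2 with quantile normalization, 2 with the transcript-length trend removed and 1 among genes with a mean of at least 10 TPM. They became 9 when the 20 highest genes and the mitochondrial ones were taken out before rescaling, 8 among ZNF genes with a mean of at least 2 TPM and 7 with a filter at 5 TPM. They numbered 0 to 19 with 1 library left out, 19 being the count without siMAD2L1 replicate 1 and 0 that without any 1 siControl library. Fewer libraries remain in each of these fits. The median log2 fold change of the ZNF genes lay between -0.121 and 0.084 over all alternatives. Same-numbered libraries had correlations of 0.019, 0.009 and 0.063 between their deviations, so the numbers were not taken to pair them; with a replicate block 1 ZNF gene was called lower, and of all genes 868, 336 higher and 532 lower.

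Over all tested genes, 525 were called higher and 921 lower. Without a filter 727 were called, 267 higher and 460 lower, and without a trend in limma 952, of which 297 were higher. With the transcript-length trend removed 838 were higher and 624 lower, with upper-quartile scaling 648 and 715, with quantile normalization 687 and 701, and with those highest and mitochondrial genes taken out 451 and 1236. Leaving out 1 library gave 326 to 2422 calls, 138 to 716 higher and 188 to 1706 lower, and siMAD2L1 replicate 1 alone gave 555 lower. MAD2L1 had log2 fold changes of -2.61 to -1.80 with 1 library left out, and its adjusted p was 0.0547 to 0.0597 without any 1 siControl library. The cause of these shifts was not tested. The depth behind the TPM is unknown, and 107 of the 195 genes lie under 10 TPM.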

Other observations

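ZNF genes under the limit of 5 TPM were measured less precisely, with a median SE of 0.236 against 0.176 for all tested genes. Of the 231 that were tested, 2 fell and 0 rose in siMAD2L1 (0.866%, against 9.78% of all tested genes), with a median log2 fold change of -0.09. ZNF488 had 1.04, 1.41 and 1.29 TPM in siMAD2L1, against 3.91, 3.18 and 4.14 TPM in siControl (log2 fold change -1.08, limma adjusted p = 0.0154). ZNF618, known to bind UHRF2 at hydroxymethylated DNA, had 1.96, 1.73 and 2.62 TPM in siMAD2L1, against 4.86, 5.69 and 4.68 TPM in siControl (-0.98, adjusted p = 0.0187). Both were apart between the groups, and both were chosen after their values were seen.

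Other zinc finger families, taken by symbol, were read beside them. Of all tested genes 9.78% were called, and the family counts below are no result about the families. ZFP36, ZDHHC18 and ZDHHC9 are outside the rule for named genes and were named after their values were seen. Of 35 ZBTB genes, which pair a BTB domain with fingers, 1 fell and 0 rose (2.86%, median 0.10). Of 21 ZSCAN and ZKSCAN genes 0 were called. Of 12 ZFP genes 1 rose (8.33%), which was ZFP36, an RNA-binding protein that speeds the decay of inflammatory mRNAs and is no C2H2 factor. It had 36.2, 35.5 and 32.1 TPM in siMAD2L1, against 18.0, 22.5 and 19.9 TPM in siControl (log2 fold change 0.75, limma adjusted p = 0.00818). Of 16 ZC3H genes 1 fell (6.25%). Of 20 ZDHHC genes, which encode palmitoyltransferases, ZDHHC18 and ZDHHC9 rose (10%, with log2 fold changes of 0.66 and 0.60).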
